A study of Mus musculus with 6 samples.

Results

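The genes described here encode the machinery by which the lysosome reports nutrient supply to the kinase complex mTORC1 and to the transcription factor TFEB. They were taken from a list of Rag GTPases, Ragulator, folliculin, GATOR, KICSTOR, sestrin, TSC and mTORC1 components, 2 mTORC1 substrates and the MiT/TFE factors, chosen by name and function. All 39 listed genes matched an Ensembl ID among the 55421 genes of the count table, and all 39 passed the filter on low counts that left 13588 genes for testing. No member differed between knockout and wild type macrophages beyond the test's threshold. For 31 of the 39, the 95% interval of the difference lay within 1.2-fold in either direction.

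RNA sequencing was done on 6 libraries of macrophages that had been grown from mouse bone marrow in culture. Of these, 3 were from cells labelled Tmem175flox/flox Lyz2-Cre+/-, with the genotype given as Tmem175-/- and called knockout here, and 3 were from cells labelled WT. TMEM175 is a cation channel of endosomes and lysosomes, and Lyz2-Cre places Cre recombinase under the lysozyme gene of myeloid cells. No library had Cre alone or floxed alleles alone, so loss of Tmem175 cannot be told apart from effects of Cre, its insertion in Lyz2 or strain background. The replicates are described as culture wells, without a statement that they came from different mice, and the p-values therefore measure only how these wells vary, which may be technical variation. The labels give no age, treatment or nutrient state.

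As background, amino acids act on mTORC1 at the lysosomal surface. Rag GTPases work as pairs of RagA or RagB with RagC or RagD, are anchored by the Ragulator complex and recruit mTORC1, which the small GTPase Rheb then activates. GATOR1 and the TSC complex are brakes on the Rags and on Rheb, and active mTORC1 phosphorylates TFEB and holds it in the cytosol. When TFEB and its relatives enter the nucleus, they bind CLEAR elements built around the letters CACGTG and drive lysosomal and autophagy genes, so macrophages rely on them to adapt their lysosomes to what they take up. These steps are set largely by protein location, nucleotide state and phosphorylation, which transcript counts do not measure.

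CACGTG occurs in the promoters of some members of the pathway, and these stretches are shown because they carry the letters that the MiT/TFE factors, and also MYC and USF factors, can bind. Promoter sequences of RefSeq on GRCm38.p6, from 250 bases before to 50 after a gene's start, were present for 34 of the 39 members. CACGTG, which reads the same on both strands, was found for 7 of these 34 genes (20.6%), against 8.09% of the 27025 genes in the promoter table. It was also found for 6 of 32 genes (18.8%) of the further list of regulators and effectors described below. The genes compared were not matched for level. The stretches below run 5′ to 3′ on the gene's strand with CACGTG in capitals.
Rragc: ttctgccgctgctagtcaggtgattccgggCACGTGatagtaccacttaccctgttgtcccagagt
Rragb: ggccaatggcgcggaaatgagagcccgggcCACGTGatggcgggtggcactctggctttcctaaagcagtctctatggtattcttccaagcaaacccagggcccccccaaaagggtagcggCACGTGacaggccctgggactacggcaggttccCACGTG
Lamtor1: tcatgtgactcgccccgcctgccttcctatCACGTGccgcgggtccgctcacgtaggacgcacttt
Lamtor4: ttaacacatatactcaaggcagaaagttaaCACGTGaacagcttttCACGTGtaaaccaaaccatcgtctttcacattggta
Fnip1: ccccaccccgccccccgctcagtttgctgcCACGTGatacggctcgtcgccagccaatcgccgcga
Rheb: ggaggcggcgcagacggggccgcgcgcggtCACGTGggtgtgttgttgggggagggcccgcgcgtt
Tbc1d7: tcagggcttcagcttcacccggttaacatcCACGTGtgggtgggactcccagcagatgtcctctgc
These lie at chr4:123917291-123917356 (plus strand, Rragc), chrX:153139801-153139960 (plus, Rragb), chr7:101905739-101905804 (plus, Lamtor1), chr5:138255332-138255413 (plus, Lamtor4), chr11:54438074-54438139 (plus, Fnip1), chr5:24842422-24842487 (minus, Rheb) and chr13:43171519-43171584 (minus, Tbc1d7). The Rragb stretch holds 3 copies and that of Lamtor4 holds 2, while the other 5 hold 1 each. The first base of CACGTG lay 112 bases before the start of Rragc and 53 before that of Tbc1d7. The full CLEAR palindrome, in which CACGTG is preceded by GT and followed by AC, was in 0 of the 34 member genes' promoters and in 0.37% of all genes'. The letters TCATGTG, on either strand, were in 2 of 34 (5.88%) against 4.31% of all genes. A match of letters is a description of the window, not a bound site.

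Total counts were 25979430 to 31542741 in knockout and 24179548 to 25916709 in wild type libraries. Tmem175 fell from 33.2 ± 0.318 to 13.2 ± 1.13 CPM (CPM, counts relative to the TMM-scaled library total; SD, n = 3 each; edgeR adjusted p = 6.01e-05). Lyz2, which carries Cre, fell from 45180 ± 4163 to 24330 ± 1578 CPM (edgeR adjusted p = 0.00415). All 8 macrophage markers listed passed the filter, the lowest being Mertk at 148 CPM. Their sum stood at 32160 to 35920 CPM in knockout and 50800 to 59690 CPM in wild type, and without Lyz2 the other 7 summed to 8994 to 9799 and 8906 to 9867 CPM. Summed markers of neutrophils and their precursors stood at 692 to 741 CPM in knockout and 400 to 592 CPM in wild type. All 8 of these markers passed the filter and 0 were called by edgeR. Those of mast cells and basophils stood at 13.1 to 20.4 and 20.2 to 29.1 CPM, those of dendritic cells at 22.3 to 35.3 and 33.6 to 41.8 CPM, and those of B cells at 10.3 to 14.3 and 14.1 to 17.2 CPM. Erythroid and megakaryocyte markers summed to 58.5 to 82.0 CPM in knockout and 68.4 to 109 CPM in wild type, with no count for Hbb-bt in any library. Osteoclast markers summed to 93.1 to 136 and 105 to 118 CPM, with no count for Calcr. Stroma and fibroblast markers summed to 24.3 to 50.8 and 16.5 to 67.05 CPM, and T and NK cell markers to 0.723 to 2.06 and 0.914 to 1.69 CPM. The filter was passed by 1 of 6 T and NK cell, 2 of 6 erythroid and megakaryocyte and 3 of 6 osteoclast markers. The part of such cells in the levels below was not tested, and in bulk RNA a change in cell number cannot be told apart from a change in RNA per cell.

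Among all 13588 genes tested, 14 were called at an adjusted p under 0.05 in edgeR's quasi-likelihood test (0.103%). Of the 39 members, 0 were called by edgeR, by DESeq2 or by limma-voom. At an unadjusted p under 0.05, edgeR gave 1 member, limma-voom 1 and DESeq2 0, where 5.44% of all genes reached that value in edgeR. The groups did not overlap in 7 members, 5 with knockout higher and 2 with knockout lower. Over all genes, 10.8% did not overlap, 5.73% with knockout higher and 5.06% with knockout lower. The median log2 fold change, as knockout minus wild type throughout, was 0.018 over the members and -0.001 over all genes tested, and the median size of change regardless of sign was 0.058 against 0.067. Of the 39, 24 were positive and 15 negative; with library totals as the only scaling, 32 were positive and 7 negative, and the median of all genes moved to 0.042. The 95% interval lay within 1.2-fold either way for 31 members (79.5%) and within 1.5-fold for 38 (97.4%), against 48.6% and 73.9% of all genes tested. These intervals are those of single genes and were not widened for the number of genes. The members and all genes tested were not matched for level in these shares.

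**Figure D1:**
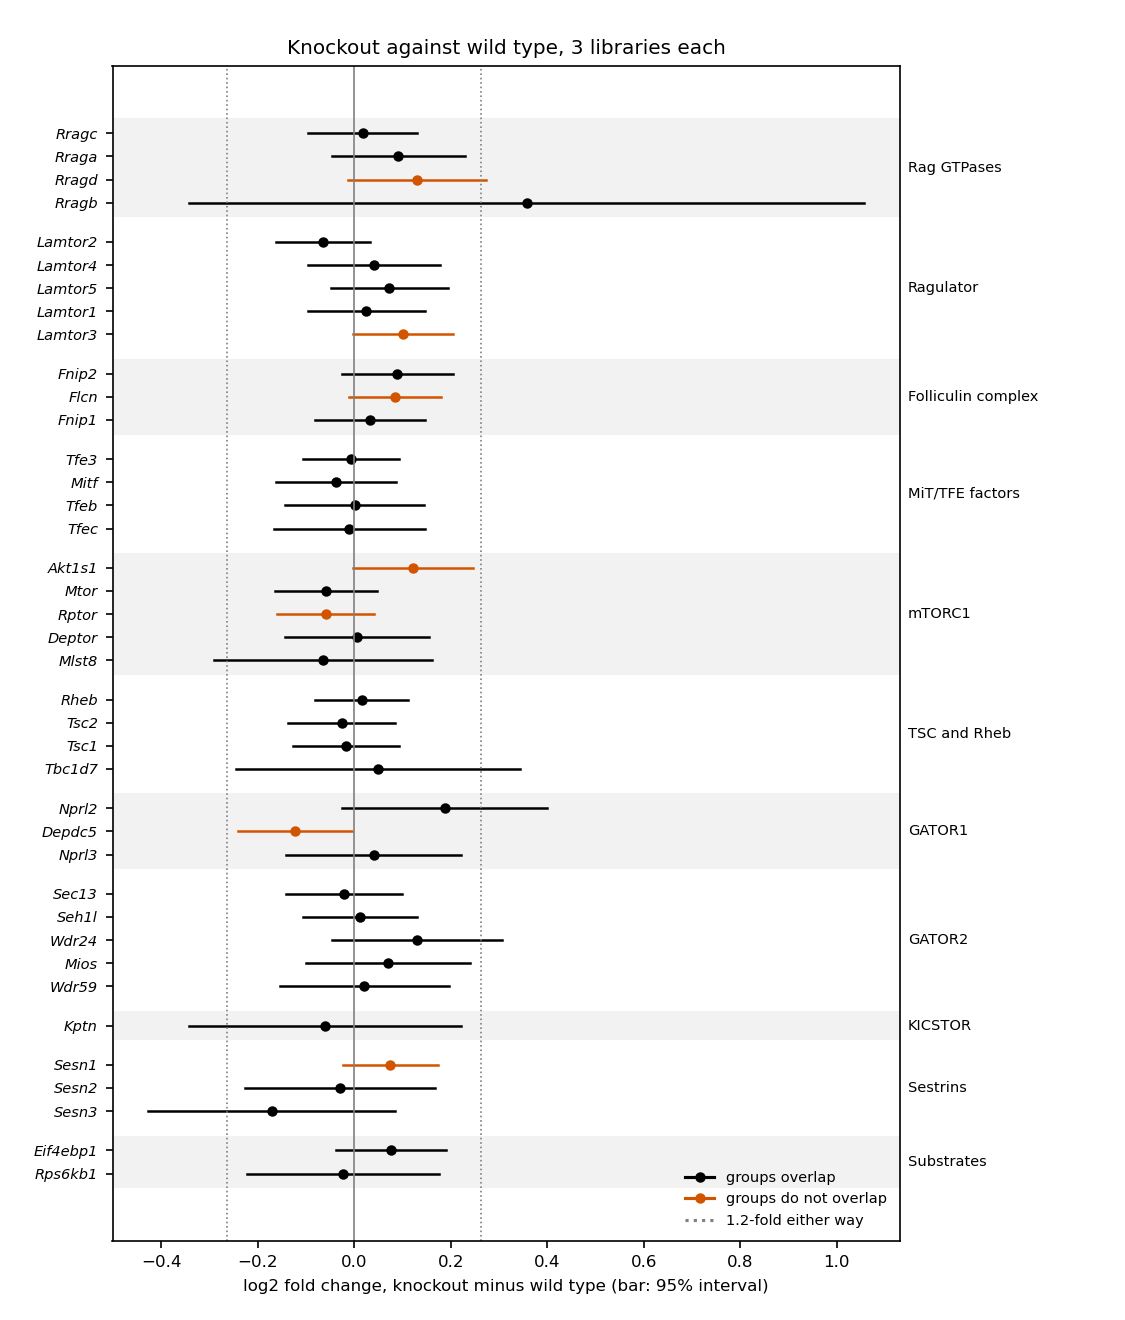
Log2 fold change of each of the 39 genes (horizontal axis, knockout minus wild type, 3 libraries each) with its 95% interval from edgeR, grouped by complex; orange marks the 7 genes whose groups did not overlap and dotted lines mark 1.2-fold. The intervals of Rragb, Rragd, Mlst8, Tbc1d7, Nprl2, Wdr24, Kptn and Sesn3 reach past the dotted lines, and that of Depdc5 is the single interval that does not include 0.

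Levels of different genes are given in RPKM, the TMM-scaled CPM per kilobase of the gene's merged exons, and folds and tests use CPM of the same gene. Averaged over the 6 libraries, the members ran from 0.241 RPKM for Rragb to 85.8 RPKM for Rragc, with a median of 7.41 RPKM against 4.19 RPKM for all tested genes with an annotated length. The level of 28 of the 39 was above that median. The spread was small: the median coefficient of variation among the 3 wild type libraries was 4.13% for members and 6.94% for all genes tested. These sets were not matched for level.

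**Figure D2:**
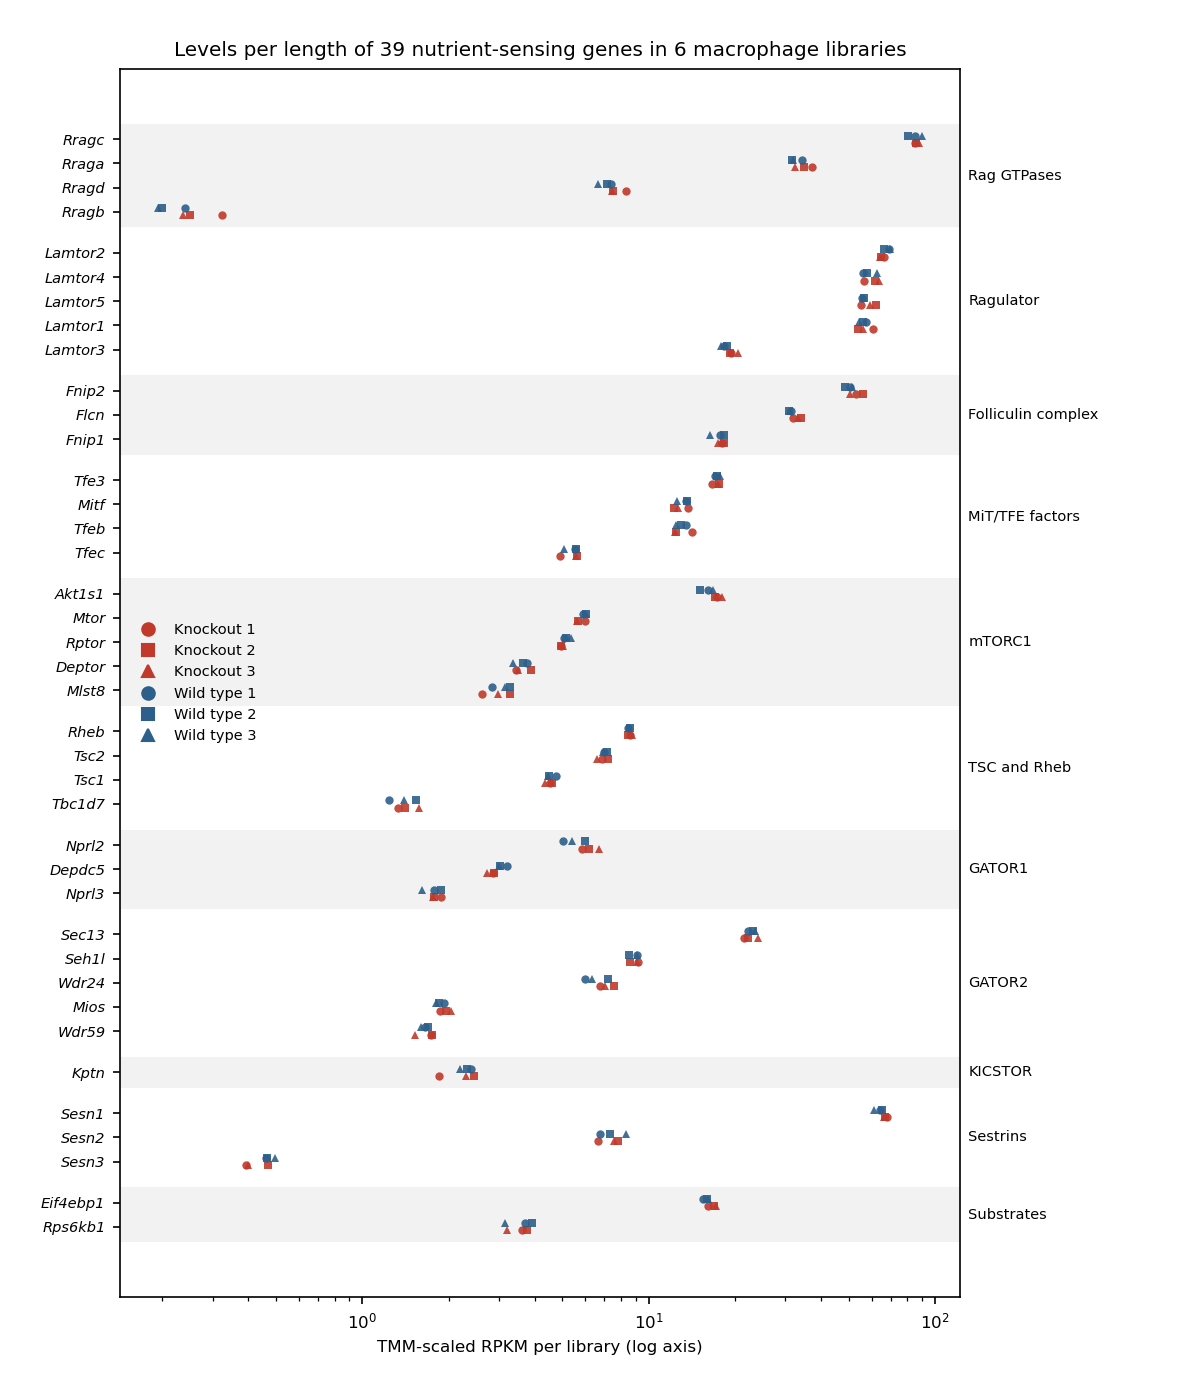
TMM-scaled RPKM (horizontal log axis) of the 39 genes in each of the 6 libraries, grouped by complex and ordered by level within it; red is knockout, blue is wild type and the marker shape is the replicate number. Complexes span wide ranges, as in the Rag GTPases from 0.241 to 85.8 RPKM, while the 6 libraries of a gene lie close together.

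The Rag GTPases differed widely in level while their genotype groups lay close together. Rragc, which encodes RagC (chromosome 4, 123917446 to 123936997), had the highest level of all members over merged exons; with the longest transcript as the length it came after Lamtor2, at 97.1 against 121.8 RPKM. It stood at 284, 287 and 294 CPM in knockout libraries 1, 2 and 3 and at 285, 269 and 300 CPM in wild type libraries 1, 2 and 3. The groups overlapped, with wild type at both ends, and the log2 fold change was 0.02 (95% interval -0.10 to 0.13; edgeR adjusted p = 0.98). Rraga, which encodes RagA, followed at 33.7 RPKM, with a log2 fold change of 0.09 (-0.05 to 0.23).

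Rragd, which encodes RagD and is known as a target of TFEB, stood at 7.41 RPKM (chromosome 4, 32983037 to 33022180). Its values were 43.1, 38.7 and 38.5 CPM in knockout and 38.2, 37.1 and 34.6 CPM in wild type. All knockout libraries were above all wild type libraries, but knockout 3 exceeded wild type 1 by little and knockout 1 stood highest. The log2 fold change of 0.13 (SE 0.06; -0.01 to 0.27) did not pass (edgeR adjusted p = 0.932), and without knockout 1 it was 0.08. Rragb, which encodes RagB (chromosome X, 153139981 to 153171943), was the lowest member, with counts of 23, 17 and 14 in knockout and 13, 11 and 11 in wild type. At these counts its log2 fold change of 0.36 had an interval from -0.34 to 1.06, so that even a level 2.08 times that of wild type lay within it. Without knockout 1 it was 0.21. Rraga and Rragc prevailed in their pairs. Rragb made up 0.643% ± 0.0488 of the summed RPKM of Rraga and Rragb in wild type and 0.768% ± 0.0840 in knockout (SD, n = 3 each). Rragd made up 7.69% ± 0.684 of Rragc and Rragd in wild type and 8.24% ± 0.596 in knockout.

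Ragulator, the scaffold that ties the Rags to the lysosomal membrane, was among the most abundant groups. Lamtor2, a core roadblock-fold subunit, stood at 66.8 RPKM, Lamtor4 at 59.7, Lamtor5 at 57.4 and Lamtor1, the lipid-anchored subunit, at 56.4 RPKM. The libraries of Lamtor4 overlapped those of Lamtor5, and those of Lamtor5 overlapped those of Lamtor1, so these neighbours did not differ beyond their spread. This order depends on the gene model: with the longest transcript as the length, Lamtor1 at 93.7 RPKM came before Lamtor4 at 79.2 and Lamtor5 at 57.6 RPKM. Lamtor3, the partner of Lamtor2, was lower at 19.0 RPKM, with libraries apart from those of the other 4. This too rests on the gene model, as its merged exons cover 4151 bases, against 1218 for Lamtor2 and 1302 for Lamtor4. In CPM it was close to both, at 76.1 in wild type against 83.2 and 76.5 CPM. With the longest transcript as the length it was still lowest, at 28.95 RPKM. Which transcripts these cells use was not tested. Of the 5 genes, 4 had a positive log2 fold change and 1 a negative one, from -0.07 for Lamtor2 to 0.10 for Lamtor3.

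Lamtor3 (chromosome 3, 137918506 to 137928900) stood at 80.2, 79.9 and 85.0 CPM in knockout and 76.1, 77.8 and 74.5 CPM in wild type. Each knockout library was above each wild type library, by a margin smaller than the spread within knockout. Its log2 fold change was 0.10 (SE 0.05; 0.00 to 0.21; edgeR adjusted p = 0.918), and the lower bound lay just below 0. Lamtor4 instead was lowest in knockout 1, wild type 1 and wild type 2, at 73.5, 72.8 and 75.4 CPM, and higher in knockout 2, knockout 3 and wild type 3, at 80.2, 82.7 and 81.4 CPM. Lamtor1, Lamtor3 and Lamtor5 have processed pseudogenes at over 95% identity to part of their transcript, and none of these copies exceeded 0.16 CPM on average. A single copy matched up to 43.4%, 29.0% and 31.3% of the transcript. Fnip2 and Wdr59 also matched a processed pseudogene, over 1.9% and 8.4%. The low CPM of the copies does not show how shared reads were counted.

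The folliculin complex is a GTPase-activating protein for RagC and RagD, and through them it controls how mTORC1 acts on TFEB. Fnip2, a folliculin partner, was the highest of the 3 genes at 51.6 RPKM, above Flcn, folliculin itself, at 32.1 RPKM and the other partner Fnip1 at 17.7 RPKM. Fnip2 took 74.1% ± 1.61 of the summed Fnip level in wild type and 74.8% ± 0.539 in knockout (SD, n = 3 each). All 3 genes had a positive log2 fold change, of 0.09 for Fnip2, 0.08 for Flcn and 0.03 for Fnip1.

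Flcn (chromosome 11, 59791408 to 59810016) stood at 138, 147 and 144 CPM in knockout and at 136, 134 and 135 CPM in wild type. The groups did not overlap, and knockout 1 lay close to wild type 1. The log2 fold change was 0.08 (SE 0.04; -0.01 to 0.18; edgeR adjusted p = 0.939). Without knockout 1 it had the smallest adjusted p of the members, at 0.554 in edgeR.

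The MiT/TFE factors, which drive lysosomal genes when in the nucleus, differed little between genotypes. Their log2 fold changes were 0.001 for Tfeb (-0.14 to 0.15), -0.007 for Tfe3 (-0.11 to 0.09), -0.01 for Tfec (-0.17 to 0.15) and -0.04 for Mitf (-0.16 to 0.09). As folds of the wild type level, the 4 intervals together reached from 0.890 for Tfec to 1.11 for Tfec and Tfeb. Per length, Tfe3 was the highest at 17.3 RPKM, Mitf and Tfeb overlapped at 13.1 and 13.0 RPKM, and Tfec, a form enriched in macrophages, stood at 5.38 RPKM. The order again changed with the gene model: with the longest transcript as the length, Tfeb came first at 31.4 RPKM, followed by Tfe3 at 25.3 and Mitf at 16.6 RPKM.

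Tfeb (chromosome 17, 47737030 to 47792419) stood at 80.6, 70.5 and 69.8 CPM in knockout and 76.7, 73.7 and 70.5 CPM in wild type. Knockout 1 was the highest and knockout 3 the lowest, so the knockout libraries enclosed the wild type ones. Knockout 1, wild type 1 and wild type 2 were above the other 3 libraries for Tfeb, and Mitf showed the same split, at 84.7, 84.0 and 84.3 CPM against 76.2 to 78.6 CPM. Tfe3 was the other way round, at 154, 157 and 160 CPM in those 3 libraries against 162 to 164 CPM. The first principal component of all genes tested (29.3% of variance) places the same 3 libraries at -2.62, -19.9 and -17.5 and the others at 9.41 to 17.4, and its part in these values was not tested. Within the family, Tfeb made up 26.5% ± 0.671 of the summed RPKM in wild type and 26.8% ± 1.74 in knockout (SD, n = 3 each).

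**Figure D3:**
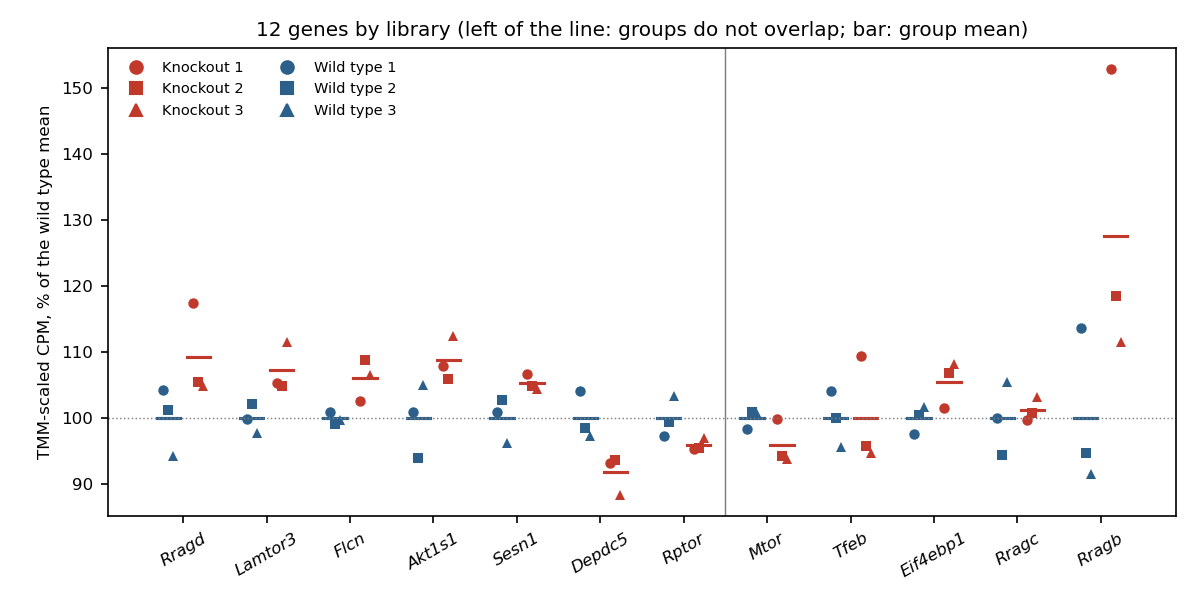
TMM-scaled CPM of 12 members in each library as a percentage of the gene's wild type mean (vertical axis); bars are group means, marker shapes are replicate numbers, and the 7 genes left of the line have groups that do not overlap. The fitted folds of these 7 run from 0.918 for Depdc5 to 1.09 for Rragd, and Rragb spreads most, with knockout 1 far above the other libraries.

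Of mTORC1 itself, the kinase gene Mtor (chromosome 4, 148448611 to 148557683) stood at 60.5, 57.1 and 56.9 CPM in knockout and 59.6, 61.1 and 61.0 CPM in wild type. Knockout 2 and knockout 3 were below all wild type libraries and knockout 1 was among them. The log2 fold change was -0.06 (-0.16 to 0.05; edgeR adjusted p = 0.968). Rptor, the scaffold that binds substrates (chromosome 11, 119602905 to 119899576), was lower in each knockout library, at 66.7, 66.8 and 67.8 CPM against 68.0, 69.5 and 72.2 CPM. Knockout 3 and wild type 1 were nearly level, and the log2 fold change of -0.06 (SE 0.04; -0.16 to 0.04) did not pass (edgeR adjusted p = 0.968).

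Akt1s1, which encodes the mTORC1 inhibitor PRAS40 (chromosome 7, 44848991 to 44855421), stood at 53.1, 52.2 and 55.4 CPM in knockout and 49.7, 46.2 and 51.7 CPM in wild type. Knockout 2 was barely above wild type 3. The log2 fold change was 0.12 (SE 0.06; 0.00 to 0.25; edgeR adjusted p = 0.918), with a lower bound just below 0. Deptor, a further inhibitor, was at 0.01 and Mlst8, a subunit that binds the kinase domain, at -0.07. Per length, Akt1s1 at 16.7 RPKM was above Mtor at 5.87 and Rptor at 5.08 RPKM, with Deptor at 3.60 and Mlst8 at 3.03 RPKM; none of these neighbours overlapped. With the longest transcript as the length, Rptor at 10.4 RPKM passed Mtor at 6.93 RPKM.

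Rheb and its brake differed little between genotypes. Rheb stood at 65.3 to 67.6 CPM over all 6 libraries, with a log2 fold change of 0.02 (-0.08 to 0.11). Tsc2, the GTPase-activating subunit, was at -0.03 (-0.14 to 0.09), Tsc1, which stabilises it, at -0.02 (-0.13 to 0.09), and Tbc1d7, the third subunit, at 0.05 (-0.25 to 0.34). Levels per length fell in the order Rheb (8.58 RPKM), Tsc2 (6.96), Tsc1 (4.52) and Tbc1d7 (1.42), with no overlap between neighbours.

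GATOR1, the complex that switches RagA and RagB off, held the single member with an unadjusted p under 0.05 in the edgeR test with TMM scaling. Depdc5, its largest subunit (chromosome 5, 32863701 to 32994236), stood at 33.8, 34.0 and 32.0 CPM in knockout and 37.7, 35.7 and 35.3 CPM in wild type. All knockout libraries were below all wild type libraries. The log2 fold change was -0.12 (SE 0.05; -0.24 to -0.004), with an unadjusted p of 0.0437 and an edgeR adjusted p of 0.908. Its unadjusted p was not under 0.05 with library totals, without a filter, in DESeq2 or without any 1 library other than wild type 3. With library totals, 7 other members were under 0.05 unadjusted (Akt1s1, Flcn, Fnip2, Lamtor3, Nprl2, Rragd and Sesn1) and 0 after adjustment in edgeR. The values of the remaining subunits were positive: Nprl2 was at 0.19 (-0.03 to 0.40) and Nprl3 at 0.04 (-0.14 to 0.22). Nprl2 stood at 11.7 to 13.5 CPM in knockout and 10.1 to 12.1 CPM in wild type, with 1 knockout library inside the wild type range.

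GATOR2, which holds GATOR1 in check, had 4 positive values and 1 negative value among 5 genes. They were 0.13 for Wdr24, 0.07 for Mios, 0.02 for Wdr59, 0.01 for Seh1l and -0.02 for Sec13. Sec13 and Seh1l, which also belong to the nuclear pore (and Sec13 to the coat of vesicles leaving the endoplasmic reticulum), stood highest at 22.8 and 8.95 RPKM. Wdr24 was at 6.81, Mios at 1.91 and Wdr59 at 1.66 RPKM. Kptn, a subunit of KICSTOR, the complex that tethers GATOR1 to the lysosome, was at 2.25 RPKM with a log2 fold change of -0.06 (-0.34 to 0.22).

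Sestrins are stress-induced proteins that bind GATOR2, and Sesn2 and Sesn1 are known as leucine sensors. Sesn1 accounted for most of the family's summed level, at 65.3 RPKM against 7.40 RPKM for Sesn2 and 0.446 RPKM for Sesn3. Its share of the summed level was 88.9% ± 1.29 in wild type and 89.6% ± 0.871 in knockout (SD, n = 3 each). Sesn1 (chromosome 10, 41809935 to 41908424) stood at 271, 266 and 265 CPM in knockout and 256, 260 and 244 CPM in wild type. The groups did not overlap, with the narrowest gap to wild type 2, and the log2 fold change was 0.08 (SE 0.04; -0.02 to 0.17; edgeR adjusted p = 0.96). Sesn2, also a target of the stress factor ATF4, was at -0.03 (-0.23 to 0.17). Sesn2 was lowest in knockout 1, wild type 1 and wild type 2, at 23.1, 23.5 and 25.6 CPM, and stood at 26.3 to 28.9 CPM in the other libraries. Sesn3 was at -0.17 (-0.43 to 0.08), and its share of the family did not overlap between groups, at 0.560% ± 0.0536 in knockout and 0.660% ± 0.0400 in wild type.

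**Figure D4:**
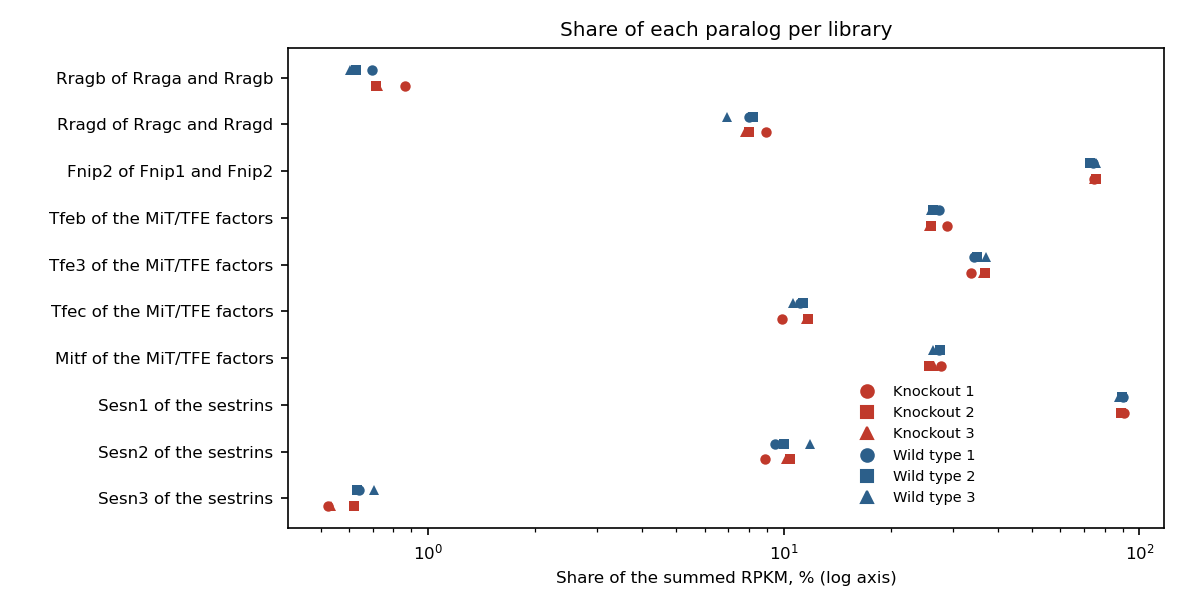
Share of a paralog in the summed TMM-scaled RPKM of its pair or family (horizontal log axis, percent) in each of the 6 libraries; red is knockout, blue is wild type and marker shapes are replicate numbers. Fnip2 and Sesn1 dominate their groups in every library, and Rragb and Rragd take small shares of their pairs. The shares of Rragb and Sesn3, both under 1%, are the 2 of 10 that do not overlap between genotypes.

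In all, 10 such shares were compared by an exact two-sided permutation test over the 6 libraries. The smallest p that 3 against 3 libraries allow is 0.1, which the shares of Rragb and Sesn3 reached, and both had a Benjamini-Hochberg adjusted value of 0.5 in the exact test. Both are shares of genes with low counts. The other 8 shares overlapped between the groups.

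The substrates of mTORC1 in the list are a translation repressor and a kinase. Eif4ebp1, which encodes the repressor 4E-BP1 (chromosome 8, 27260329 to 27276674), stood at 35.3, 37.2 and 37.7 CPM in knockout and 34.0, 35.0 and 35.4 CPM in wild type. Knockout 1 lay just below wild type 3 and the other 2 knockout libraries above it, and the log2 fold change was 0.08 (-0.04 to 0.19; edgeR adjusted p = 0.966). Rps6kb1, which encodes the S6 kinase, was at -0.02 (-0.22 to 0.18) and 3.56 RPKM, against 16.3 RPKM for Eif4ebp1. The sources used here do not give the strand setting of the counting, and reads of Rragc, Lamtor1, Mlst8, Akt1s1, Tsc2, Nprl3 and Rps6kb1 therefore cannot be told apart from those of a protein-coding gene on the opposite strand where their exons overlap. The shared part was 22.5% of the merged exons of Mlst8, 18.7% of Lamtor1, 17.7% of Nprl3 and at most 7.9% of the others. The opposite genes of Mlst8, Nprl3, Rps6kb1 and Tsc2 averaged 0.0, 5.19, 48.1 and 94.6 CPM.

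Other genes of the pathway were read from 2 further lists. Of 41 regulators and effectors, 39 matched an ID and 38 were tested; Rnf152, a ubiquitin ligase of RagA, failed the filter. In edgeR 0 of the 38 were called, and the median log2 fold change was -0.02. The groups did not overlap in 10.5% of the 38, against 10.8% of all genes tested. An unadjusted p under 0.05 in edgeR was reached by 2 of the 38 (5.26%), against 5.44% of all genes tested. Both were higher in knockout. Sar1b, a GTPase of vesicle budding also described as a leucine sensor, stood at 48.0, 49.7 and 47.6 CPM in knockout and 42.9, 42.4 and 45.9 CPM in wild type, a log2 fold change of 0.15 (SE 0.05; edgeR adjusted p = 0.881). Gpr137b, a lysosomal membrane protein that binds the Rags, stood at 249, 208 and 211 CPM against 202, 206 and 176 CPM, a log2 fold change of 0.19 (SE 0.08; edgeR adjusted p = 0.908). For both genes each knockout library was above each wild type library. Trim37, a ubiquitin ligase, and Map4k3, a kinase of amino acid signalling, followed at -0.13 (SE 0.06) and -0.10 (SE 0.05), with each knockout library below each wild type library.

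Of 34 CLEAR network targets, which are lysosomal and autophagy genes known to respond to TFEB, 33 were tested and 0 were called by edgeR. None had an unadjusted p under 0.05, the median log2 fold change was 0.035, and 22 were positive and 11 negative. The changes ran from -0.05 to 0.14, and for 30 of the 33 the 95% interval lay within 1.2-fold. CACGTG was in the promoters of 13 of the 28 genes of this list found in the promoter table (46.4%), against 8.09% of all genes there. CLEAR elements are built around these letters, so a high share in this list is not an independent result. The smallest p-values were those of Pip4p1, a lysosomal membrane protein that links lysosomes to their transport along microtubules, at 0.09 (SE 0.04), and Map1lc3b, the autophagosome protein LC3B, at 0.09 (SE 0.05). Pip4p1 stood at 105, 112 and 111 CPM in knockout and 102, 101 and 104 CPM in wild type, and Map1lc3b at 208, 218 and 210 against 200, 192 and 208 CPM. The groups of both were apart by narrow margins, and the edgeR adjusted p was 0.932 for Pip4p1 and 0.95 for Map1lc3b. Groups were apart in 6.06% of the 33 genes, against 10.8% of all genes tested. Hexa and Glb1, both lysosomal glycosidases, were next at 0.09 (SE 0.05) and 0.12 (SE 0.08). Ppargc1a, a regulator of mitochondrial genes, failed the filter with at most 0.13 CPM in a library.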

How the data were processed

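The authors deposited raw counts per Ensembl gene for 6 libraries. Per the submitters' processing notes, HISAT2 and featureCounts were used on GRCm38; the sources used here do not give the tools' versions, the strand setting or the gene annotation. RNA was taken in TRIzol and sequenced from SMARTer mRNA libraries, per the labels' protocols. Of 55421 IDs, 55240 matched GENCODE M21 (GRCm38), which gave symbols, positions and exon lengths.

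TMM scaling and the filterByExpr filter of edgeR 4.0.16 (R 4.3.3) were applied. Groups were taken from the sample titles, and knockout was compared with wild type by edgeR's two-sided quasi-likelihood test on genotype alone. A gene was called when its p, adjusted by Benjamini-Hochberg over all 13588 genes, was under 0.05. Standard errors came from the F statistic, and 95% intervals from the t distribution with the fit's degrees of freedom. The test was also run on simulated counts whose planted changes were all larger than any change fitted for the members. That check does not cover changes of the members' size. Alternatives were DESeq2 1.42.0, limma-voom (limma 3.58.1), other scalings, filters and dispersions, a replicate block, each library left out in turn, and the longest transcript as length. Copies of transcripts were searched with BLAST 2.17.0 at 95% identity over at least 100 bases.

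The members, lists and alternatives were chosen with earlier results of these data known. Values in every library are given for members with an unadjusted p under 0.05 or groups that do not overlap, for Tfeb, Flcn, Rragd, Mtor and Eif4ebp1, and for the highest and lowest member per length; from the further lists, the 4 smallest p-values are named. The bounds of 1.2-fold and 1.5-fold were set, and Lamtor4, Sesn2, Mitf and Tfe3 were singled out by library, after their values were seen. Of the 41 regulators, Kics2 and Lyset did not match and are not analysed here. Libraries of the same group differed by more than sampling noise (chi-square over degrees of freedom 3.66 to 17.6).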

Additional observations from a re-analysis of the deposited data

How the results depend on the processing

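In none of the 15 alternative fits was a member called; the lowest adjusted p was 0.554 (Flcn without knockout replicate 1, edgeR), and Rragb was not tested with a minimum of 1 CPM. Over all genes, 10 were higher and 30 lower in the DESeq2 test, and 39 and 112 without a filter, against 2 and 12; without a single library, 0 to 2 were higher and 4 to 10 lower. The cause was not tested. The median log2 fold change of the members was 0.062 with library totals, and that of all genes was 0.042 there. For Tfeb, at 0.001, the sign turned with DESeq2 size factors (-0.0004), upper-quartile scaling (-0.0058), the DESeq2 test (-0.0004), limma-voom (-0.0005), a minimum of 1 CPM (-0.0017) and the replicate block (-0.0016). Without a single library it ran from -0.067 to 0.0382, and Rragc from -0.0217 to 0.0584. The log2 fold change of Rptor was -0.0347 and that of Sesn1 0.049 without wild type replicate 3, and that of Akt1s1 0.079 without wild type replicate 2. The median level of the members in wild type was 10.6 RPKM with the longest transcript as length, which is never longer than the merged exons, against 7.48.

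Differences in paralog shares, as knockout minus wild type in percentage points, changed sign without a single library for 6 of the 10. They ran from -0.0398 to 1.57 for Fnip2, -0.753 to 0.823 for Tfeb, -0.427 to 1.14 for Tfe3, -0.273 to 0.634 for Tfec, -1.02 to 0.00564 for Mitf and -1.15 to 0.0506 for Sesn2.

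Between same-numbered libraries, deviations from the group means correlated at 0.057, -0.123 and 0.0388. Knockout replicates 1 and 2 correlated best with wild type replicates 2 (0.129) and 3 (0.143). Deviations from a group's own mean cancel out within the group, so a pairing by number was neither shown nor excluded. With the replicate block, 3 genes were higher and 14 lower over all genes, and 3 members had an unadjusted p under 0.05. Depth limits Rragb, with 11 to 23 counts.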
